A study of Rattus rattus with 18 samples.

Results

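The miR-181 family was followed across ischemic rat brain on 18 single-colour (Cy5) microRNA arrays. Its members were taken by probe name as rno-miR-181a-5p, rno-miR-181b-5p, rno-miR-181c-5p, rno-miR-181d-5p and rno-miR-181c-3p (the prefix for rat is left out below), which are 5 of the 761 rat microRNA probes on the array. All 5 passed the filter on low values, that is, they were detected on at least 3 of the 18 arrays, as were 532 of the 761 probes. The arrays came from 9 male Sprague Dawley rats, 3 in each of 3 conditions, and every rat gave 1 core and 1 peri array. Sham rats had the surgery alone. In tMCAO (transient middle cerebral artery occlusion) rats a filament closed the artery and was then withdrawn to let blood return. The third condition is labelled remote limb postconditioning (PostC), in which blood flow to a limb is interrupted after the insult to the brain, and the labels do not say whether these rats also had tMCAO. The rats carried no transgene or deletion according to the sources used here, and the study calls its rats adult without giving an age. The sample labels place core in temporo-parietal cortex and peri in striatum, whereas the methods of the study name the regions the other way round, so core and peri are used below as names only. The methods give more than 1 time of sacrifice and do not say which applies to the arrays. The organism field of the labels reads Rattus rattus, while the series title reads Rattus norvegicus, the species to which the Sprague Dawley strain belongs.

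A microRNA guides an Argonaute protein to messenger RNAs that pair with its seed, the bases 2 to 8 from its 5′ end, and lowers the output of those messengers. The miR-181 family is expressed in brain and in lymphocytes, and its known targets include messengers of Bcl-2 family proteins and of the chaperone GRP78, which act in cell death and protein folding. miR-181a and miR-181b are made from shared clusters and miR-181c and miR-181d from another, and each hairpin gives a 5p arm, usually the guide, and a 3p arm, usually the one that is degraded.

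The target sequences of the probes are shown because the 5p members share the seed and differ at few other bases, which bears on how far their signals can be told apart. They are printed 5′ to 3′ as the array files give them, with the seed in capitals.
rno-miR-181a-5p: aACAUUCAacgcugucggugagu
rno-miR-181b-5p: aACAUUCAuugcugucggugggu
rno-miR-181c-5p: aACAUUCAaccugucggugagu
rno-miR-181d-5p: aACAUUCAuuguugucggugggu
rno-miR-181c-3p: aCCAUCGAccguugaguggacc
rno-miR-181a-1-3p: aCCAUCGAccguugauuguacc

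Of all 761 probes, 4 held the seed ACAUUCA, and these were the 4 5p members. Counted from 1 at the 5′ end, miR-181d-5p differed from miR-181b-5p by the substitution C12U alone. miR-181b-5p differed from miR-181a-5p by A9U, C10U and A21G. miR-181c-5p was 1 base shorter than miR-181a-5p and otherwise identical to it, at an edit distance of 1, and lay at an edit distance of 4 from miR-181b-5p and of 5 from miR-181d-5p. miR-181c-3p shared its seed with a single probe outside the set, miR-181a-1-3p, which differed from miR-181c-3p by G16U and G19U. The GC content of the 5 members was 47.8%, 47.8%, 45.5%, 43.5% and 59.1%, in the order printed, against a median of 50% over all probes tested. RNA of one member can bind the probe of another when the sequences are this close. The share of such binding was not tested.

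On the 18 arrays between 188 and 605 probes were above the detection limit, which is the median of the empty spots of an array plus 3 times their scaled median absolute deviation. The mean number detected over the 2 arrays of a rat was 399 to 431.5 in sham, 211 to 338.5 in tMCAO and 267 to 396.5 in PostC rats, so that tMCAO lay below sham without overlap. Arrays of 1 group correlated least in PostC core, at 0.831 to 0.926, and in sham peri they correlated at 0.958 to 0.975. The arrays of PostC rat 3 stood apart. With the mean of each probe over all arrays removed, its core array correlated at -0.03 to 0.05 with the core arrays and at 0.30 to 0.37 with the peri arrays of PostC rats 1 and 2, and its peri array at -0.46 with their peri arrays and at -0.24 to -0.12 with their core arrays. The sources used here do not settle whether the core and peri arrays of this rat were exchanged, which would change the meaning of every PostC value by region, but not the rat means. The labels were kept as given, and the PostC group means and comparisons by region are followed by values without this rat. The brain label was checked with 8 microRNAs of neurons and brain, of which 7, miR-124-3p and miR-9a-5p among them, were detected on all 18 arrays and miR-218a-5p on 16. Of microRNAs of other tissues, miR-122-5p of liver was detected on 1 array, and miR-1-3p, miR-133a-3p and miR-206-3p of muscle on 9, 15 and 11.

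miR-181a-5p was measured on all 18 arrays, and its normalized level (log2 intensity, used for every level below) varied within a range of 1.39. In sham rats 1, 2 and 3 it was 13.38, 13.36 and 13.32 in core and 13.44, 13.28 and 13.42 in peri. In tMCAO rats it was 13.37, 13.78 and 13.58 in core and 12.44, 13.38 and 13.52 in peri. In PostC rats it was 13.83, 13.44 and 13.76 in core and 13.26, 13.57 and 13.67 in peri. All groups overlapped sham except PostC core, where every rat lay above every sham rat, as was the case for 10.9% of all probes. The low tMCAO peri value of rat 1 rested on 1 of the 4 spots of the probe, which read 229 units of raw intensity where the others read 5750, 6120 and 6560, and the median of the 4 spots gave 13.54 on that array.

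miR-181b-5p was detected on 17 arrays and varied within a range of 4.08. In sham core it was 10.77, 12.19 and 10.97 in rats 1, 2 and 3, and in sham peri 10.46, 11.60 and 10.67. In tMCAO core it was 8.75, 8.91 and 9.75, and in tMCAO peri 8.87, 10.08 and 10.61. In PostC core it was 8.12, 9.95 and 11.51, and in PostC peri 11.64, 11.29 and 9.95. Every tMCAO core value lay below every sham core value, the peri values of these conditions overlapped at 10.61 against 10.46, and PostC rats spanned both. Sham rat 2 was the highest of its group in both regions.

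miR-181c-5p, also detected on 17 arrays, showed the same picture with wider gaps. It was 11.39, 12.52 and 11.46 in sham core and 11.22, 11.36 and 10.74 in sham peri. In tMCAO rats it was 8.28, 8.81 and 9.94 in core and 8.64, 9.12 and 10.14 in peri. In PostC rats it was 7.58, 9.77 and 12.22 in core and 11.32, 11.43 and 9.53 in peri. No tMCAO value reached the lowest sham value of its region. On the scale of the deposited normalized intensities its core mean was 3450 ± 1500 units in sham and 485 ± 356 in tMCAO rats (SD, n = 3), with 5180 units in sham rat 2 and 229 in tMCAO rat 1 at the extremes.

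miR-181d-5p was detected on 15 arrays. Its core values were 9.62, 12.27 and 9.81 in sham, 8.37, 8.49 and 8.05 in tMCAO and 7.46, 8.42 and 10.73 in PostC rats. Its peri values were 8.94, 10.14 and 8.97 in sham, 8.60, 9.23 and 9.27 in tMCAO and 10.42, 10.17 and 8.39 in PostC rats. It was below the detection limit in tMCAO core of rat 3, PostC core of rat 1 and PostC peri of rat 3. Core values of sham and tMCAO rats did not overlap, whereas peri values did. miR-181c-3p, the partner arm of miR-181c-5p, was dim: it was detected on 8 of the 18 arrays and on none of the 3 tMCAO peri arrays, and its group means lay between 7.34 and 7.58.

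**Figure D1:**
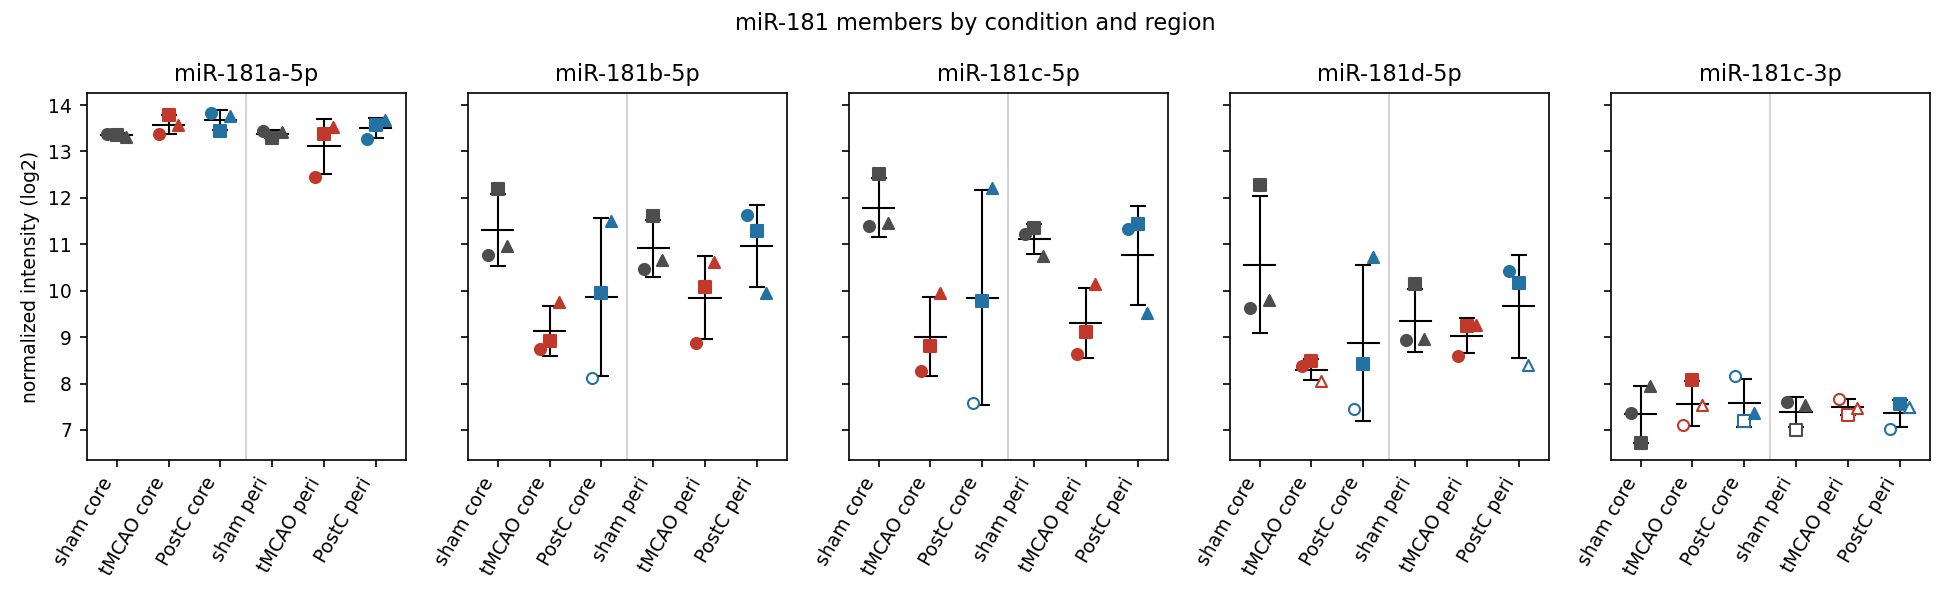
Normalized log2 intensity of the 5 members in the 6 groups; circles, squares and triangles are rats 1, 2 and 3, open symbols mark arrays on which the probe was not detected, and black lines give the mean and SD (n = 3). In core, the 3 tMCAO values of miR-181b-5p, miR-181c-5p and miR-181d-5p all sit below the 3 sham values, while miR-181a-5p stays between 12.44 and 13.83 on every array.

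Ordered by group mean, miR-181c-5p was highest in sham core (11.79 ± 0.63, SD, n = 3 in each group), followed by sham peri (11.11 ± 0.32), PostC peri (10.76 ± 1.07), PostC core (9.85 ± 2.32), tMCAO peri (9.30 ± 0.76) and tMCAO core (9.01 ± 0.85). Neighbours in this order overlapped, except that the lowest sham core rat (11.39) lay just above the highest sham peri rat (11.36). For miR-181b-5p the order was sham core (11.31 ± 0.77), PostC peri (10.96 ± 0.89), sham peri (10.91 ± 0.61), PostC core (9.86 ± 1.70), tMCAO peri (9.85 ± 0.89) and tMCAO core (9.14 ± 0.54), and all neighbours overlapped. For miR-181d-5p it was sham core (10.56 ± 1.48), PostC peri (9.66 ± 1.11), sham peri (9.35 ± 0.68), tMCAO peri (9.03 ± 0.38), PostC core (8.87 ± 1.68) and tMCAO core (8.30 ± 0.23), again with overlap between all neighbours. For miR-181a-5p the order was PostC core (13.68 ± 0.21), tMCAO core (13.58 ± 0.20), PostC peri (13.50 ± 0.22), sham peri (13.38 ± 0.09), sham core (13.36 ± 0.03) and tMCAO peri (13.11 ± 0.59), and all neighbours overlapped. The last place rested on the deviating spot of rat 1: with the median of the spots tMCAO peri was at 13.49 ± 0.09, above sham peri (13.40 ± 0.11) and sham core (13.35 ± 0.04). For miR-181b-5p, miR-181c-5p and miR-181d-5p, sham core was the highest group and tMCAO core the lowest with all rats included. Without PostC rat 3 the PostC core means of these 3 were 9.03, 8.67 and 7.94, below tMCAO core, and the PostC peri means 11.46, 11.37 and 10.30, the first of them above sham core. The corresponding means of miR-181a-5p were 13.64 in core and 13.41 in peri.

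The first comparison asked whether the family differed between tMCAO and sham rats when core and peri of each rat were averaged. miR-181c-5p and miR-181b-5p were lower after tMCAO, by 4.91-fold and 3.06-fold, and miR-181d-5p was 2.44-fold lower without passing the threshold. miR-181a-5p and miR-181c-3p showed no significant difference. In bulk tissue, fewer cells that carry a microRNA and less of it per cell cannot be told apart. With limma and Benjamini-Hochberg adjustment over all 532 probes, miR-181c-5p differed by -2.29 (log2; SE 0.47, 95% confidence interval -3.33 to -1.26, adjusted p = 0.0123) and was in place 3 among all falls. miR-181b-5p differed by -1.61 (SE 0.43, interval -2.57 to -0.66, adjusted p = 0.0356). For miR-181d-5p the difference was -1.29 (SE 0.45, interval -2.29 to -0.29, adjusted p = 0.0776). For miR-181a-5p it was -0.02 (SE 0.19, interval -0.44 to 0.39, adjusted p = 0.937) and for miR-181c-3p 0.16 (SE 0.22, adjusted p = 0.643). For the last value, the probe was below the detection limit on 2 of 3 tMCAO core and 3 of 3 tMCAO peri arrays. The intervals of the last 2 leave room for changes of up to 0.44 and 0.65 on the log2 scale.

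Thus 2 of the 5 members were called lower, where 7.33% of all probes tested were, and the median difference was -1.29 over the 5 members against -0.02 over all probes. The rat means of miR-181b-5p, miR-181c-5p and miR-181d-5p did not overlap between tMCAO and sham, which held for 23.3% of all probes in this direction. For miR-181c-5p these rat means were 11.30, 11.94 and 11.10 in sham and 8.46, 8.96 and 10.04 in tMCAO rats. Both calls depended on single rats: without tMCAO rat 1 the differences were -1.95 for miR-181c-5p (adjusted p = 0.0555) and -1.27 for miR-181b-5p (adjusted p = 0.147), and without tMCAO rat 2 they were -2.20 (adjusted p = 0.0633) and -1.61 (adjusted p = 0.123). The call of miR-181b-5p was also lost without sham rat 2 (-1.22, adjusted p = 0.0894), sham rat 3 (-1.76, adjusted p = 0.0592) or PostC rat 2 (-1.61, adjusted p = 0.0536), and neither call was made with the deposited normalized intensities (adjusted p = 0.0663 and 0.0924). Over all probes 63 were called, 24 higher and 39 lower, so that 61.9% of the calls were lower, against 57.7% with the GC trend removed, 69.6% with the deposited intensities, 73.9% after quantile normalization and 80% after median scaling, which put the median difference of all probes at -0.21. Under median scaling miR-181d-5p passed as well (adjusted p = 0.0191). With 1 rat left out at a time its difference ranged from -1.63 to -0.67, and it did not pass. Its sham rat means were 9.28, 11.20 and 9.39, so that sham rat 2 stood well above the others. The part of the lower number of detected probes on tMCAO arrays in these falls was not tested.

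**Figure D2:**
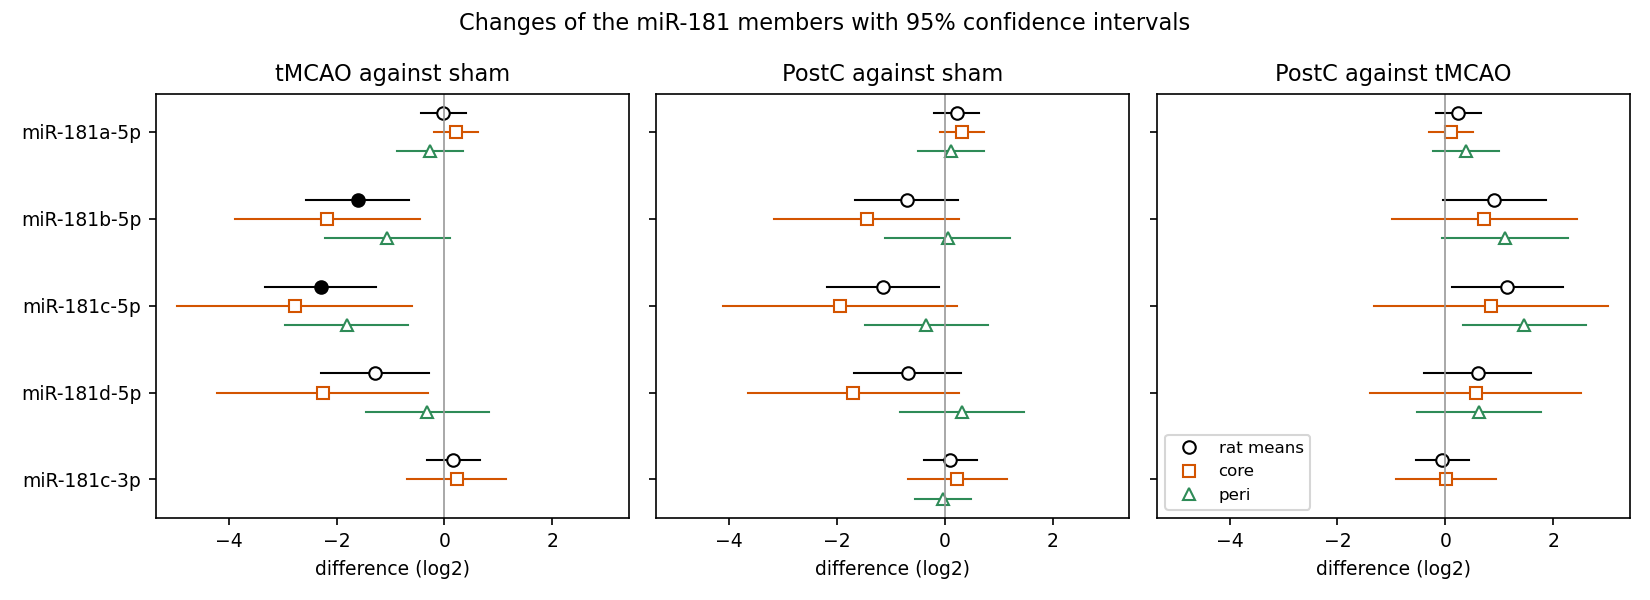
Differences between conditions (log2) with 95% confidence intervals for each member, from rat means (circles), core (squares) and peri (triangles); filled symbols passed the adjusted threshold of 0.05, and miR-181c-3p in peri is left out of the comparisons with tMCAO, where it was not detected. The filled symbols are miR-181b-5p (-1.61) and miR-181c-5p (-2.29) in the rat means of tMCAO against sham.

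By region, the falls were larger in core than in peri in value, but no member passed the threshold in either. In core the differences were -2.17 for miR-181b-5p (SE 0.77, adjusted p = 0.145), -2.78 for miR-181c-5p (SE 0.98, adjusted p = 0.142) and -2.26 for miR-181d-5p (SE 0.88, adjusted p = 0.17). None of the 5 members was called in core, where 3.38% of all probes were, and 3 of them passed an unadjusted p under 0.05 in limma, as did 21.8% of all probes. All 3 were without overlap between the conditions, as were 24.2% of all probes in this direction. miR-181a-5p differed by 0.22 (SE 0.19, adjusted p = 0.479) and miR-181c-3p by 0.23 (SE 0.41, adjusted p = 0.755). The outcome in core depended on the spread taken from the PostC rats: fitted on sham and tMCAO rats alone, miR-181c-5p (adjusted p = 0.0281) and miR-181b-5p (adjusted p = 0.037) passed along with 7.52% of all probes, and without PostC rat 3 miR-181c-5p passed (adjusted p = 0.0441) along with 5.08%.

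In peri miR-181c-5p differed by -1.81 (SE 0.53, adjusted p = 0.161), miR-181b-5p by -1.06 (SE 0.54, adjusted p = 0.369), miR-181d-5p by -0.32 (SE 0.53, adjusted p = 0.792) and miR-181a-5p by -0.27 (SE 0.28, adjusted p = 0.674). None of the 5 was called, against 0.564% of all probes, and only miR-181c-5p passed an unadjusted p under 0.05 in limma, as did 15.2% of all probes. It was also the only member whose values did not overlap in peri, as was the case for 16.0% of all probes in this direction. Again it passed with sham and tMCAO rats alone (adjusted p = 0.0301), where 5.08% of all probes did, and without PostC rat 3 (adjusted p = 0.0158), where 6.77% did. Under median scaling miR-181a-5p (-1.02), miR-181b-5p (-2.21) and miR-181c-5p (-2.97) passed in limma (adjusted p = 0.0364, 0.0331 and 0.0218), where 128 of all probes did. The change of miR-181c-5p then differed between core and peri by only 0.02. For miR-181a-5p the sign in peri followed the deviating spot of tMCAO rat 1: without that rat the difference was 0.07, and with the median of the spots 0.09.

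**Figure D3:**
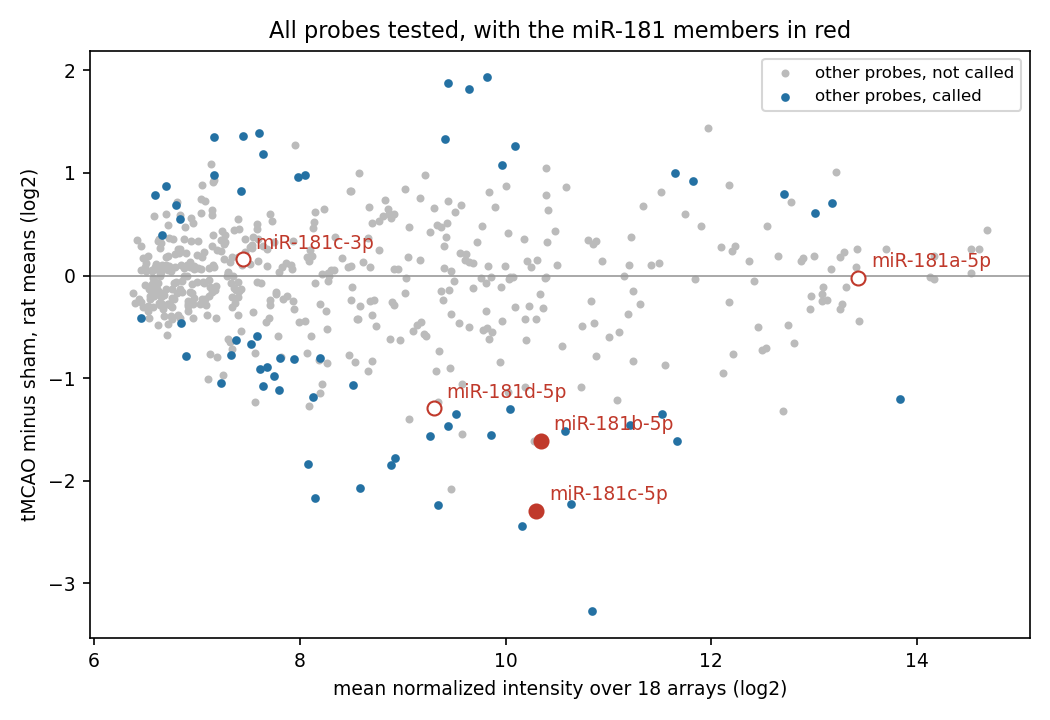
Difference between tMCAO and sham rat means (log2, vertical) against the mean normalized log2 intensity over the 18 arrays (horizontal) for the 532 probes tested; blue points and filled red circles passed the adjusted threshold. miR-181c-5p at -2.29 is in place 3 among all falls, while miR-181a-5p at -0.02 and miR-181c-3p at 0.16 lie near the line of no difference.

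Whether members moved apart on the same arrays was read from how the log2 ratio of 2 members, averaged over both regions of a rat, shifted between conditions. The ratio of miR-181c-5p to miR-181a-5p shifted by -2.27 from sham to tMCAO rats. The shift was -1.59 for miR-181b-5p and -1.26 for miR-181d-5p against miR-181a-5p. All of these ratios were lower in 3 of 3 tMCAO rats than in any sham rat, with p = 0.1 in a two-sided exact permutation test, the smallest that 3 rats against 3 can give. The ratio to miR-181a-5p was lower without overlap for 10.4% of all other probes tested, and since miR-181a-5p itself differed by only -0.02, these ratios largely restate the falls of the 3 members. miR-181c-5p also lost against miR-181b-5p, by a smaller shift of -0.68 (exact permutation p = 0.1), and the ratio to miR-181b-5p, itself lower after tMCAO, fell without overlap for 0.565% of all other probes. The ratio of miR-181d-5p to miR-181b-5p shifted by 0.33 (exact permutation p = 0.6), with overlap between the conditions. In all, 7 ratios were compared in this contrast, of which the 2 with miR-181c-3p are left out because that probe was below the detection limit on most tMCAO arrays, and adjustment over them cannot bring a p below 0.1.

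Over the 18 arrays, miR-181b-5p correlated with miR-181c-5p at a Pearson r of 0.95 and with miR-181d-5p at 0.89, and the last 2 with each other at 0.85. Taken within the 6 groups, after subtraction of the group means, these values were 0.94, 0.87 and 0.81. With miR-181a-5p the 3 correlated at -0.12 to 0.01 over all arrays, and with miR-181c-3p at -0.61 to -0.46. These values are descriptions: the 18 points come from 9 rats, and points of different members share the array, its normalization and part of their sequence.

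**Figure D4:**
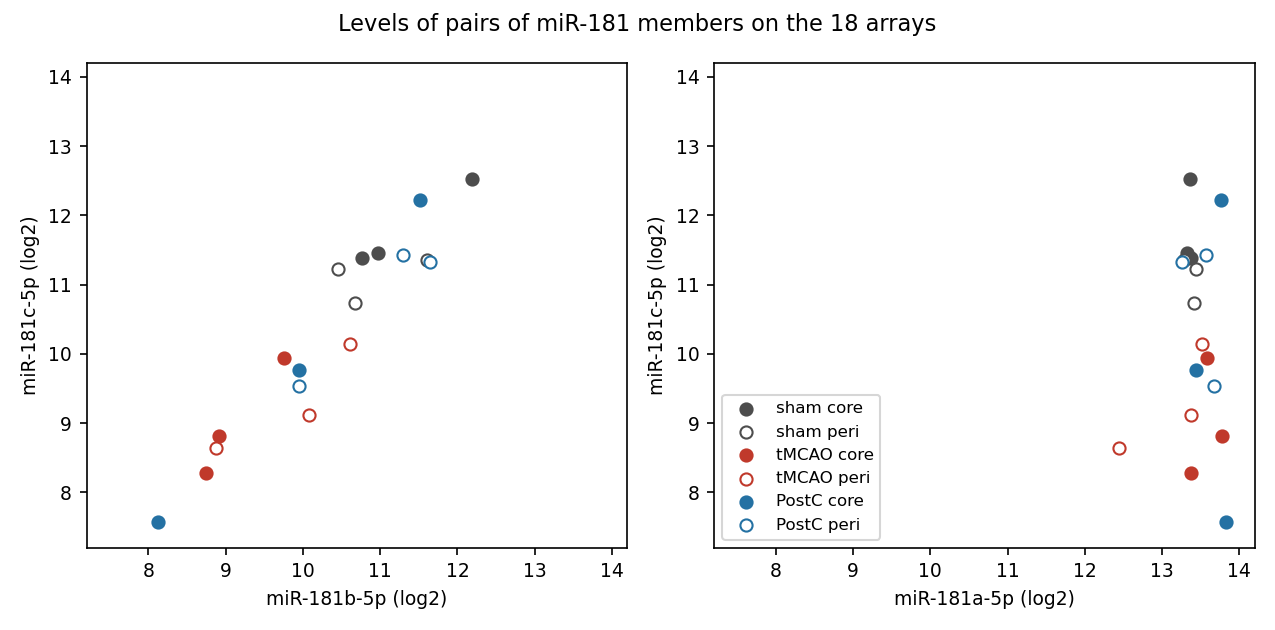
Normalized log2 levels of miR-181c-5p against miR-181b-5p (left) and miR-181a-5p (right) on the 18 arrays, filled for core and open for peri, coloured by condition. The points of miR-181b-5p follow those of miR-181c-5p from PostC core rat 1 (8.12 and 7.58) to sham core rat 2 (12.19 and 12.52), while miR-181a-5p stays in a narrow band.

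The probes outside the family whose pattern was most like the mean of the 4 5p members over the 18 arrays were miR-132-5p (r = 0.93), miR-598-3p (0.92), miR-27a-3p (0.91), miR-369-5p (0.88) and miR-30e-3p (0.86). In all, 10 of the 525 other probes had an r over 0.8, and the median r was 0.06. None of these 5 shares the seed of the family. After tMCAO miR-132-5p fell by 2.24 (SE 0.34, adjusted p = 0.00555) and miR-598-3p fell by 1.47 (SE 0.35, adjusted p = 0.0224) in the rat means, and the differences of the other 3 were -1.21, -0.62 and -0.62 with adjusted p of 0.0765, 0.163 and 0.177.

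The next comparison set PostC rats against sham and against tMCAO rats, which share their sham and tMCAO samples with the comparison above. In the rat means, PostC values of miR-181b-5p, miR-181c-5p and miR-181d-5p lay between those of the other conditions on average, and no member differed significantly from either. Against sham the differences were -0.70 (SE 0.43, adjusted p = 0.514), -1.14 (SE 0.47, adjusted p = 0.291) and -0.69 (SE 0.45, adjusted p = 0.532), in this order. None of the 5 members was called, against 0.188% of all probes, and miR-181c-5p alone passed an unadjusted p under 0.05 in limma, as did 75 of all 532 probes. Its PostC rat means (9.45, 10.60 and 10.87) lay below all sham rats, as did those of 7.52% of all probes, and those of miR-181a-5p (13.54, 13.50 and 13.72) lay above all sham rats, as did those of 10.7%. The difference of miR-181a-5p was 0.22 (SE 0.19, adjusted p = 0.651).

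Against tMCAO the differences of the rat means were 0.91 for miR-181b-5p (SE 0.43, adjusted p = 0.297), 1.15 for miR-181c-5p (SE 0.47, interval 0.12 to 2.19, adjusted p = 0.212) and 0.60 for miR-181d-5p (SE 0.45, adjusted p = 0.568). None of the 5 members was called, against 5.64% of all probes, and miR-181c-5p again was the member with an unadjusted p under 0.05 in limma, which 18.4% of all probes had. miR-181d-5p was the member whose rat means did not overlap, at 8.94, 9.29 and 9.56 in PostC against 8.48, 8.86 and 8.66 in tMCAO rats. This held for 18.6% of all probes in this direction. The means of PostC rats 1 and 3 and of tMCAO rat 3 each include a value below the detection limit. The narrow gap between 8.86 and 8.94 was therefore not fully measured. miR-181a-5p and miR-181c-3p differed by 0.24 and -0.06 (adjusted p = 0.581 and 0.912).

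These PostC averages came from rats with opposite regional patterns. On the core array of rat 1, miR-181b-5p, miR-181c-5p and miR-181d-5p were all below the detection limit, at 116, 71.8 and 48 units of raw spot intensity, although the peri array of the same rat read 2870, 2440 and 1260 units. In rat 3 the order was turned, with 6730, 11200 and 4000 units in core and 710, 518 and 223 in peri. These core arrays also differed in the number of detected probes, with 198 for rat 1 and 605 for rat 3, as did the peri arrays with 336 and 188. The part of this difference in the values was not tested. The summed level of the 6 leukocyte microRNAs, described below, was higher in core than in peri in all 3 PostC rats, at 12.67 against 12.17 in rat 1, 12.54 against 12.13 in rat 2 and 13.03 against 11.66 in rat 3, so that this list did not turn in rat 3. Nor did that of the 2 oligodendrocyte microRNAs as measured, at 8.24 against 11.02 in rat 1, 8.66 against 9.54 in rat 2 and 10.48 against 10.89 in rat 3. Of these 2, core of rats 1, 2 and 3 showed 0, 1 and 2 above the detection limit, and peri 2, 2 and 1. The sums therefore rest in part on undetected probes. The summed level of the 8 microRNAs of neurons and brain did turn, at 16.17 against 16.56 in rat 1, 16.10 against 16.45 in rat 2 and 16.44 against 16.10 in rat 3. The red blood cell sums were 10.81 against 10.87, 10.69 against 9.92 and 10.56 against 12.69 in rats 1, 2 and 3. Those of the endothelial list were 12.04 against 12.93, 12.81 against 12.72 and 12.86 against 13.81. Both were higher in core in rat 2 alone. The leukocyte sum mostly follows its brightest probe, miR-150-5p, with a mean level of 11.82 against 9.51 for miR-146a-5p.

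Within core, none of the 5 members was called in PostC against sham (0% of all probes) or against tMCAO (2.26%), and within peri none was called against sham (0%) or tMCAO (0%). In core, none of the 5 had an unadjusted p under 0.05 in limma in either comparison, and 90 and 71 of all probes had. In peri, 14 and 31 of all probes had, and miR-181c-5p was among the latter. The differences from tMCAO in peri were 1.11 for miR-181b-5p (SE 0.54), 1.46 for miR-181c-5p (SE 0.53) and 0.63 for miR-181d-5p (SE 0.53), with adjusted p of 0.725, 0.725 and 0.869. Without PostC rat 3 they were 1.61, 2.07 and 1.26, and miR-181c-5p passed (adjusted p = 0.0128), as did 11.1% of all probes in that fit. Without PostC rat 1 they were 0.76, 1.18 and 0.25, and none passed. In core the differences from tMCAO were 0.72, 0.84 and 0.56, and without PostC rat 3 they turned to -0.11, -0.34 and -0.37. Without PostC rat 1, whose core values were below the detection limit, they were 1.59, 1.98 and 1.27. The differences from sham in core were -1.45, -1.94 and -1.70 in the same order, and -2.28, -3.12 and -2.63 without PostC rat 3 (adjusted p = 0.118, 0.0866 and 0.118). Without PostC rat 1 they shrank to -0.58, -0.80 and -0.99 (adjusted p = 0.752, 0.712 and 0.681), so their size depended on which rat was left out. In peri the differences from sham were 0.05, -0.35 and 0.31, and 0.56, 0.27 and 0.95 without PostC rat 3. Without PostC rat 1 they were -0.29, -0.63 and -0.07.

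The paired design allowed a comparison of core and peri within each rat. In sham rats miR-181b-5p, miR-181c-5p and miR-181d-5p were higher in core in 3 of 3 rats, by 0.30 to 0.59, 0.17 to 1.16 and 0.68 to 2.13 on the log2 scale. In tMCAO rats they were lower in core in 3 of 3 rats, with differences of -1.17 to -0.12 for miR-181b-5p, -0.36 to -0.19 for miR-181c-5p and, for miR-181d-5p, -0.23 and -0.74 in rats 1 and 2 and a peri level at least 2.21-fold higher in rat 3, where core was below the detection limit. In PostC rat 1, where core was below the detection limit, peri was at least 10.5-fold higher for miR-181b-5p, 8.35-fold for miR-181c-5p and 4.48-fold for miR-181d-5p. These bounds use the lowest signal among the detected probes of the dim array, and the fits below use the values as measured. In PostC rat 2 the core minus peri differences were -1.34, -1.66 and -1.76, in this order. In PostC rat 3 they were 1.57 for miR-181b-5p and 2.69 for miR-181c-5p, and miR-181d-5p was at least 3.51-fold higher in core, its peri value being below the detection limit. miR-181a-5p differed between regions by -0.10 to 0.08 in sham, 0.06 to 0.93 in tMCAO and -0.13 to 0.58 in PostC rats. The 0.93 was that of tMCAO rat 1 and turned to -0.21 with the median of the spots.

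**Figure D5:**
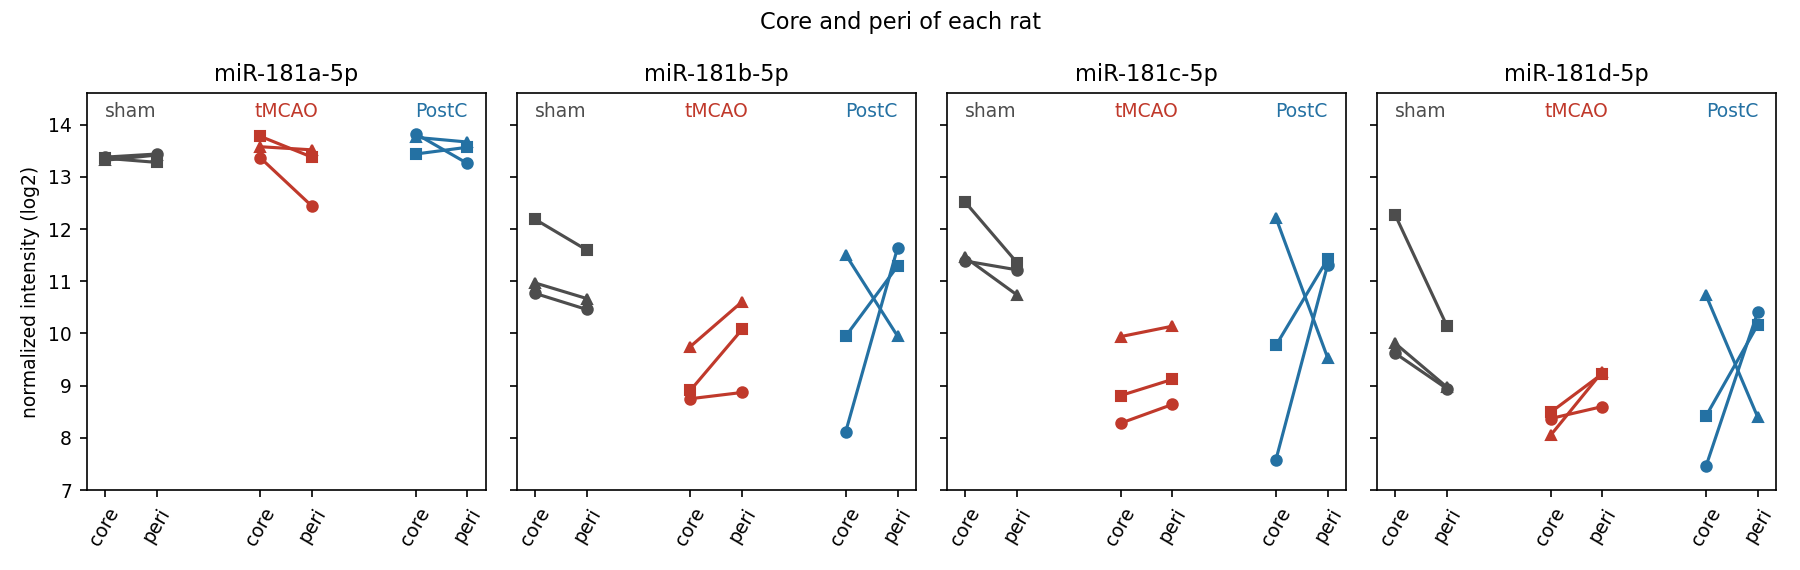
Normalized log2 intensity of the 4 5p members in core and peri, with a line for each rat (circles rat 1, squares rat 2, triangles rat 3). For miR-181b-5p, miR-181c-5p and miR-181d-5p the lines fall from core to peri in all 3 sham rats and rise in all 3 tMCAO rats, and in PostC rat 3 they run against those of rats 1 and 2.

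None of these regional differences passed the threshold in limma. Core against peri, no member was called in sham (0% of all probes), tMCAO (0.940%) or PostC rats (0%), and no member had an unadjusted p under 0.05 in any of them, where 29, 58 and 52 of all probes had. In PostC rats the mean differences were -1.10, -0.90 and -0.79 for miR-181b-5p, miR-181c-5p and miR-181d-5p, and without PostC rat 3 they were -2.43, -2.70 and -2.36 (adjusted p = 0.107, 0.0587 and 0.0587). Without PostC rat 1 all of these signs turned, to 0.11, 0.51 and 0.29. The change after tMCAO differed between core and peri by -1.12 for miR-181b-5p (SE 1.04, adjusted p = 0.799), -0.97 for miR-181c-5p (SE 1.29, adjusted p = 0.924) and -1.94 for miR-181d-5p (SE 1.14, adjusted p = 0.655). In this test of the difference itself 0% of all probes were called, and 46 had an unadjusted p under 0.05. The core minus peri values of these 3 members did not overlap between sham and tMCAO rats, as was true of 15.2% of all probes in this direction. For PostC against sham the corresponding differences were -1.50, -1.59 and -2.01 (adjusted p = 0.64, 0.704 and 0.539), with 0% of all probes called and 56 with an unadjusted p under 0.05. Without PostC rat 3 they were -2.84, -3.39 and -3.57, and miR-181d-5p passed (adjusted p = 0.044), as did 0.376% of all probes, whereas without PostC rat 1 they were -0.29, -0.17 and -0.92.

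The array also held 5 other arms of the family. miR-181b-1-3p, miR-181b-2-3p and miR-181d-3p were detected on 2, 0 and 1 arrays and were not tested. miR-181a-1-3p was detected on 12 arrays and miR-181a-2-3p on 14, and neither was called in any comparison. After tMCAO the rat mean of miR-181a-2-3p differed by -0.42 from sham (SE 0.32, adjusted p = 0.373), and it was 0.79 higher in PostC than in tMCAO rats (SE 0.32, adjusted p = 0.212). By region, core was lower than peri in 3 of 3 sham rats (-1.22 to -0.65) and in tMCAO rat 1 (-0.98), but higher in PostC rats 1 and 2 (1.52 and 0.18). It was below the detection limit in peri of tMCAO rats 2 and 3 and PostC rat 3 and in core of tMCAO rat 3, so that no regional order was measured in these rats. The rat mean of miR-181a-1-3p differed by 0.00 between tMCAO and sham (SE 0.27, adjusted p = 0.995).

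Other microRNAs with known messenger targets in the Bcl-2 family, 8 in number, all passed the filter. After tMCAO 1 of the 8 was lower in the rat means and none was higher, where 7.33% and 4.51% of all probes were, with a median difference of -0.30 against -0.02 over all probes. The lower one was miR-29b-3p, a member of the miR-29 family, which fell by 2.44 (SE 0.44, adjusted p = 0.00951). The differences were 0.51 for miR-15b-5p, -0.48 for miR-16-5p and -0.28 for miR-195-5p, which share a seed family of their own, with adjusted p of 0.189, 0.166 and 0.624. In PostC rats none of the 8 was called against sham or tMCAO, where 0.188% and 5.64% of all probes were, with medians of -0.13 and 0.00.

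Some markers of cell types moved in the same contrast and others did not, and their part in the falls of the miR-181 members was not tested. Of 8 microRNAs of neurons and brain, 4 were lower in tMCAO than in sham rat means, as were 7.33% of all probes, and none was higher (median -0.64). These were miR-218a-5p, which fell by 2.23 (adjusted p = 0.00555), miR-137-3p, which fell by 1.61 (adjusted p = 0.0184), miR-153-3p, which fell by 1.35 (adjusted p = 0.0452), and miR-9a-5p, which fell by 1.20 (adjusted p = 0.035). The other 4 differed by 0.44 for miR-128-3p (adjusted p = 0.0668), 0.06 for miR-138-5p, -0.01 for miR-124-3p and -0.07 for miR-129-5p. The summed level of this list was 16.41 to 16.49 in sham core and 15.96 to 16.16 in tMCAO core, and 16.31 to 16.54 against 16.29 to 16.60 in peri. Neither oligodendrocyte microRNA was called. miR-338-3p differed by -2.08 (adjusted p = 0.0583) and miR-219a-5p was detected on no tMCAO array, and their sum was 10.92 to 13.62 in sham core, with sham rat 2 the highest as for miR-181b-5p, miR-181c-5p and miR-181d-5p, and 8.27 to 9.42 in tMCAO core. Of 6 leukocyte microRNAs 5 were tested, and 2 were called higher after tMCAO, as were 4.51% of all probes. These were miR-150-5p, higher by 0.92 (adjusted p = 0.0298) and detected on all 18 arrays, and miR-155-5p (adjusted p = 0.0126), which was above background on 2 tMCAO core arrays, on none of tMCAO peri and on no sham array, so that its difference has no measured sham level. miR-155-5p was detected on 3 arrays, the fewest that the filter allows, of which 1 was a PostC core array. It was tested only through the groups where it was high, so its call is not a measured rise. Of the other 3, miR-146a-5p, detected on all 18 arrays, differed by 0.62 (adjusted p = 0.11), and miR-223-3p (0.75, adjusted p = 0.259) and miR-142-5p (-0.28, adjusted p = 0.319) were detected on 4 and 5 arrays. The leukocyte sum was 11.69 to 11.98 in sham core, 12.89 to 13.59 in tMCAO core and 12.54 to 13.03 in PostC core, while miR-142-3p, the defining leukocyte microRNA, was detected on 1 array. In peri it was 11.59 to 11.81 in sham, 11.76 to 12.20 in tMCAO and 11.66 to 12.17 in PostC rats. Of 3 red blood cell microRNAs 2 were tested and miR-486 was called higher, by 1.39 (adjusted p = 0.00951), although it was detected on 3 of 3 tMCAO core and 0 of 3 tMCAO peri arrays. miR-451-5p, detected on all 18 arrays, differed by 0.14 (adjusted p = 0.809). The sums of this list were 11.24 to 12.06 in sham core and 11.53 to 12.03 in tMCAO core, and its miR-144-3p was detected on 0 arrays. Of 2 endothelial microRNAs none was called (median -0.52), and of 3 tested microRNAs of other tissues miR-1-3p was called lower (adjusted p = 0.0103), being detected on all sham arrays and on none of tMCAO. The other 2 differed by 0.65 for miR-133a-3p (adjusted p = 0.0811) and -0.23 for miR-206-3p (adjusted p = 0.526).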

How the data were processed

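MicroRNA arrays (µParaflo, LC Sciences) of core and peri from 9 rats were analysed. The authors deposited, per array, the median pixel intensity of each spot with neither background subtraction nor normalization, and linear intensities after subtraction of background and locally weighted regression, whose columns all matched their own arrays best (lowest r 0.873, against at most 0.714 for another array). RNA was extracted with a miRNeasy kit per the labels and with Trizol per the methods.

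Background was corrected with normexp (offset 50), log2 values were normalized by cyclic loess with control spots at weight 0, and the 4 spots of a probe were averaged. Levels are comparable between arrays for 1 probe, not between probes, and changes are relative to all microRNAs. Detection used the 612 empty spots of each array, as the files give no local background. Differences between conditions were tested in limma 3.58.1 under R 4.3.3 (trended variance, Benjamini-Hochberg adjustment, threshold 0.05), with the rat as the replicate and 3 conditions sharing the spread. The code of the fit was run on simulated independent noise with added differences, which lacks features of these data such as arrays that stand apart. Median microRNA spots of 49.1 to 261 units and 3 rats per condition limit the precision.

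The members, the lists and the named microRNAs were chosen with earlier results of these data known. Named were the members, the other miR-181 arms, the 5 probes most like the 5p mean, and of the Bcl-2 list those past the threshold and the first 3 in list order. Cell type markers were named after their values were seen. Alternatives were other background corrections, normalizations, filters, tests and blocks, and leaving out each rat. Keeping control spots in the loess was added after seeing the data. Figures were drawn with matplotlib 3.10.9. No genome or microRNA annotation was used here, so no genomic positions are given.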

Additional observations from a re-analysis of the deposited data

Results flagged for a closer look

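The core minus peri difference of 3 members was above 0 in every sham rat and below 0 in every tMCAO rat. From sham to tMCAO rats it shifted by -1.12 for miR-181b-5p, -0.97 for miR-181c-5p and -1.94 for miR-181d-5p, and the test of this difference in limma gave adjusted p of 0.799, 0.924 and 0.655. Of the 532 probes tested, 36 (6.77%) had this pattern of signs, these 3 among them. Under median scaling the shift of miR-181c-5p was 0.02 and its mean core minus peri difference in tMCAO rats 0.38, and after quantile normalization the mean difference of miR-181b-5p in sham rats was -0.04, so that the pattern depended on the scaling for both. The sums of the oligodendrocyte list, 10.92 to 13.62 in sham core, 8.51 to 10.74 in sham peri, 8.27 to 9.42 in tMCAO core and 8.71 to 9.35 in tMCAO peri, were likewise highest in sham core. In tMCAO rats 1, 2 and 3 these sums were 8.75, 8.27 and 9.42 in core against 8.71, 9.12 and 9.35 in peri, so that as measured they were lower in core in rat 2 alone. Of the 2 probes, 1 was detected on each tMCAO core array and 0, 1 and 1 on the peri arrays. A regional order in these rats therefore rests partly on undetected probes. The part of this list in the pattern was not tested.

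For miR-181a-2-3p the core minus peri difference was below 0 in every sham and tMCAO rat and above 0 in every PostC rat, but the probe was below the detection limit in both regions of tMCAO rat 3 and in peri of tMCAO rat 2 and PostC rat 3. Of the 532 probes tested, 2 (0.376%) had this pattern of signs, detected or not. For miR-181a-2-3p the sign was measured in the 3 sham rats, tMCAO rat 1 and PostC rats 1 and 2, and the sign in PostC rat 3 would turn if its arrays had been exchanged, which was not tested. As measured on all arrays, it was 1.51 higher in PostC than in sham rats (limma, adjusted p = 0.309) and 1.65 higher in PostC than in tMCAO rats, a difference that was not tested.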

How the results depend on the processing

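Of the 5 members, the 2 called lower in the rat means of tMCAO against sham became 0 with the deposited intensities, plain background subtraction, the methods' t-test after Benjamini-Hochberg adjustment (which called 23 of all probes) and the filter for detection on all arrays, which leaves miR-181a-5p alone to test, and 1 with sham and tMCAO rats only. Leaving out 1 rat at a time gave 0 to 2. miR-181c-5p stayed between -2.96 and -1.95 and miR-181b-5p between -2.27 and -1.22 in every alternative. The count of 0 in core became 2 with these 2 conditions alone, and that in peri 1, or 3 with median scaling (miR-181a-5p at -1.02, miR-181b-5p at -2.21 and miR-181c-5p at -2.97), under which 128 of all probes were called there. With 1 rat left out, both counts, that of PostC against tMCAO in peri and that of the regional difference in PostC against sham ranged from 0 to 1, each time through PostC rat 3. Same-numbered rats of different conditions are different animals whose residuals correlated at -0.45 to 0.44. With the replicate number as a block, 2 members were called in the rat means and none elsewhere, and all probes called in core went from 18 to 3. The number of probes called in the rat means, 63, ranged from 21 (detected on all arrays) to 130 (median scaling) and from 8 to 96 with 1 rat left out. In core it was 3 to 46, in peri 0 to 128. With 1 rat left out these ranges were 0 to 27 in core and 0 to 36 in peri. For PostC against tMCAO the rat means gave 30, with a range of 3 to 38, and of 9 to 46 with 1 rat left out.

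Signs turned mainly for values near 0 and for regional values. Median scaling turned miR-15b-5p (-0.20), miR-181c-3p (-0.09, and in PostC -0.04 against sham and 0.06 against tMCAO), miR-181c-5p core against peri in tMCAO (0.38) and its regional difference (0.02), and PostC against sham in peri for miR-181b-5p (-0.54) and miR-181d-5p (-0.25). Quantile normalization turned miR-181a-5p (0.14), miR-181c-3p (-0.20, in core -0.13, in PostC -0.16 and 0.04) and miR-181b-5p core against peri in sham (-0.04) and PostC against sham in peri (-0.09). Removing the GC trend turned miR-181a-5p (0.01) and miR-181c-3p (-0.04, in core -0.11, in PostC -0.02 and 0.01). The deposited intensities turned miR-181a-5p (0.10, in peri 0.01), miR-181c-3p (in core -0.02, PostC against tMCAO 0.01) and miR-181b-5p PostC against sham in peri (-0.08). The median of the spots turned miR-181a-5p (0.17, in peri 0.09) and miR-181a-1-3p (0.02, as with control spots in the loess). Plain subtraction turned miR-181a-1-3p (0.34), miR-181a-5p (in core -0.10, PostC against sham -0.05) and, in PostC against tMCAO, miR-181d-5p (-0.16) and in core miR-181b-5p, miR-181c-5p and miR-181d-5p (-0.01, -1.09 and -0.79). With 1 rat left out, tMCAO against sham spanned -0.14 to 0.19 for miR-181a-5p (peri -0.47 to 0.07), -0.09 to 0.35 for miR-181c-3p (core -0.09 to 0.53), -0.52 to 0.08 for miR-181d-5p in peri, -0.12 to 0.14 for miR-181a-1-3p and -0.48 to 0.09 for miR-195-5p. For miR-181c-3p, PostC spanned -0.15 to 0.29 against sham and -0.14 to 0.02 against tMCAO. For miR-181b-5p, miR-181c-5p and miR-181d-5p in this order, PostC against sham in peri spanned -0.29 to 0.56, -0.68 to 0.27 and -0.07 to 0.95, PostC against tMCAO in core -0.11 to 1.59, -0.34 to 1.98 and -0.37 to 1.27, and core against peri in PostC -2.43 to 0.11, -2.70 to 0.51 and -2.36 to 0.29. The causes were not tested. Dim signal limits miR-181c-3p, miR-181d-5p and the remaining 3p arms, which several arrays did not show above background.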
